A study of Rattus norvegicus with 40 samples.

Results

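The total RNA of fetal rat liver was compared between fetuses given rapamycin and fetuses given its solvent, dimethyl sulfoxide (DMSO). The comparison rests on 8 of the 40 arrays of the series, 4 per treatment, chosen as the arrays whose titles name total RNA of fetal liver. All fetuses were Sprague Dawley rats. They were injected on day 19 of gestation with DMSO alone or with 50 µg of rapamycin per fetus, and the livers were taken 24 h later, on day 20. No other agent is named for either group. The other arrays of the series held polysome RNA of the fetal livers and both kinds of RNA from adult livers, either refed for 3 h after a 48 h fast or taken 24 h after partial hepatectomy. The adults were given DMSO or rapamycin, scaled to body weight at 250 µg per 100 g, with 3 arrays per group. In the hepatectomy groups this was 1 h before surgery. The labels call the arrays biological replicates. The labels do not say whether fetuses shared a litter or whether a liver stood for 1 fetus, so the p-values measure the spread between these samples.

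Rapamycin binds the small protein FKBP12, and the pair inhibits the kinase mTOR within mTOR complex 1. That complex promotes the translation of ribosomal protein mRNAs and the production of lipids, nucleotides and amino acids, in part through the transcription factors SREBP and ATF4. Fetal liver near term holds dividing hepatocytes together with the blood-forming cells of the erythroid, granulocytic and megakaryocytic lines, so its total RNA is a mixture of these sources. In such bulk RNA, fewer cells of a type and less RNA per cell cannot be told apart.

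No gene passed the test for a rapamycin effect. Of 10860 transcript clusters (the array's gene-level units) tested with limma within pairs of equal replicate number, 0 were called at a Benjamini-Hochberg adjusted p below 0.05 (0%), in either direction. The smallest adjusted p was 0.549. At an unadjusted p below 0.05 stood 666 transcript clusters (6.13%), of which 228 (2.10%) were higher and 438 (4.03%) lower with rapamycin. Rapamycin was below DMSO in all 4 pairs for 959 (8.83%) and above it in all 4 for 621 (5.72%). The 4 rapamycin and 4 DMSO arrays did not overlap for 105 (0.967%), with rapamycin above for 33 (0.304%) and below for 72 (0.663%). Differences were small: the median over all transcript clusters was −0.02 on the log2 scale with a median standard error (SE) of 0.11, and 52 exceeded 1.5-fold. For 92.5% of the transcript clusters the 95% interval of the difference lay within 1.5-fold in both directions, and for 99.3% within 2-fold. In a fit without pairing these shares were 72.1% and 96.0%, with a median SE of 0.16. All differences below are rapamycin minus DMSO in log2 units, with the SE of the fit and n = 4 pairs.

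The arrays carried the marks of the tissue in both groups. Albumin mRNA (Alb) measured 14.1 to 14.4 on the log2 scale across the 8 arrays, and Afp, the fetal liver marker alpha-fetoprotein, 13.9 to 14.3. Erythroid Alas2, the first enzyme of haem synthesis in red cell precursors, measured 13.2 to 13.8. The largest source of variation was not the treatment. Replicate number took 74.6% of the sum of squares over transcript clusters, rapamycin 7.30% and the remainder 18.1%. These shares rest on 3, 1 and 3 degrees of freedom, so the 7.30% includes variation between arrays as well as any effect of rapamycin. On the first principal component (59.3% of the variance) numbers 1 and 2 stood on one side and numbers 3 and 4 on the other in both treatments. Rapamycin number 1 lay apart on the second component (13.3%) and rapamycin number 4 on the third (11.1%). DMSO and rapamycin arrays of equal number deviated together from their group means, with correlations of 0.42 to 0.71 across transcript clusters, which are not independent of each other. Arrays of unequal number ran from −0.68 to 0.61, positive within numbers 1 and 2 and within numbers 3 and 4. DMSO number 4 stood at 0.61 with rapamycin number 3, above its 0.42 with rapamycin number 4.

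**Figure D1:**
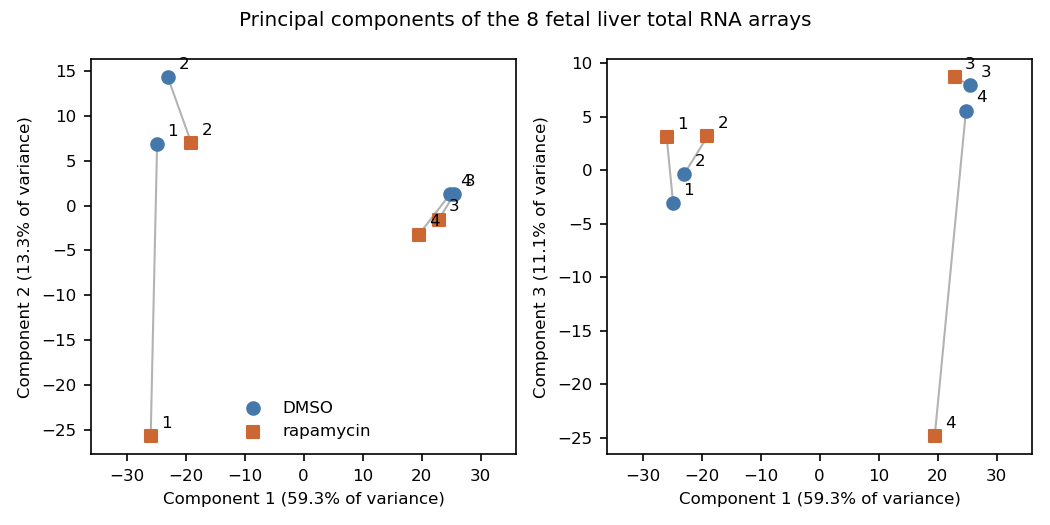
Principal components of log2 intensity for the 8 fetal total RNA arrays, with DMSO as circles, rapamycin as squares and grey lines joining arrays of equal number. Numbers 1 and 2 lie on the left and numbers 3 and 4 on the right, and rapamycin 1 and rapamycin 4 lie farthest from their DMSO partners.

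Some genes differed widely between numbers 1 and 2 and numbers 3 and 4 in both treatments. Cyp3a2, a drug-oxidising cytochrome P450, measured 6.11, 6.21, 11.41 and 11.43 in DMSO numbers 1 to 4 and 7.91, 7.59, 11.28 and 9.86 in the rapamycin arrays. Hbe1, an embryonic globin, ran the other way, at 13.47, 13.45, 11.95 and 11.74 in DMSO and 13.73, 13.09, 11.79 and 11.93 with rapamycin. Both were chosen after their values were seen. What the numbers mark is not given in the labels used here, and these levels are a description without a test.

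The root mean square rapamycin difference over all transcript clusters was 0.353 in number 1, 0.203 in number 2, 0.239 in number 3 and 0.346 in number 4. The number of transcript clusters past 1.5-fold followed the same order, with 957 in number 1 and 155 in number 2. Results below therefore give the 4 pairs separately where they differ.

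Among genes higher with rapamycin, the 12 with the smallest p are described first. Ces2g, a carboxylesterase that hydrolyses esters and drugs, measured 7.16, 7.10, 7.34 and 7.20 in DMSO numbers 1 to 4 and 8.11, 7.87, 7.66 and 8.23 with rapamycin. All 4 rapamycin arrays stood above all 4 DMSO arrays, and the difference was 0.77 ± 0.13 (limma, adjusted p = 0.549). Veph1, a protein with a membrane-binding pleckstrin homology domain, measured 7.50, 7.54, 7.71 and 8.19 in DMSO and 8.56, 7.97, 8.40 and 9.10 with rapamycin. Each of its pairs was higher with rapamycin, by 0.77 ± 0.12, although the groups overlapped. Trim69, a member of the TRIM family of ubiquitin ligases, was also without overlap, at 6.33, 6.58, 6.28 and 6.56 against 7.48, 6.75, 7.49 and 7.27. Its difference was 0.81 ± 0.17, and only 0.17 of it was seen in number 2.

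Cyp2e1, the ethanol-oxidising cytochrome P450 whose expression begins around birth, measured 10.08, 8.90, 10.60 and 10.48 in DMSO and 11.08, 10.01, 10.78 and 11.03 with rapamycin. It was higher in 4 of 4 pairs, by 0.71 ± 0.16 (limma, adjusted p = 0.629), and the pairs ranged from 0.17 to 1.11. Mmp15, a membrane-bound matrix metalloproteinase, stood at 9.27, 9.21, 9.73 and 9.73 in DMSO and at 9.99, 9.51, 10.40 and 10.77 with rapamycin. The remaining genes of the 12 with the smallest p in this direction were likewise higher in 4 of 4 pairs. They were Pyroxd2 (0.59), an oxidoreductase, Map3k13 (0.56), a kinase upstream of stress-activated MAP kinases, and Ubxn2a (0.66), a cofactor of the p97 ATPase. Pik3c2g (0.50), a class II phosphoinositide 3-kinase, Clcn4 (0.59), a chloride-proton exchanger, and Rnf144a (0.43), a ubiquitin ligase, followed. Rcor2, a corepressor of REST, differed by 0.90 ± 0.21 on the transcript cluster named here but by −0.01 ± 0.10 on another of the same gene, so its probes disagreed.

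**Figure D2:**
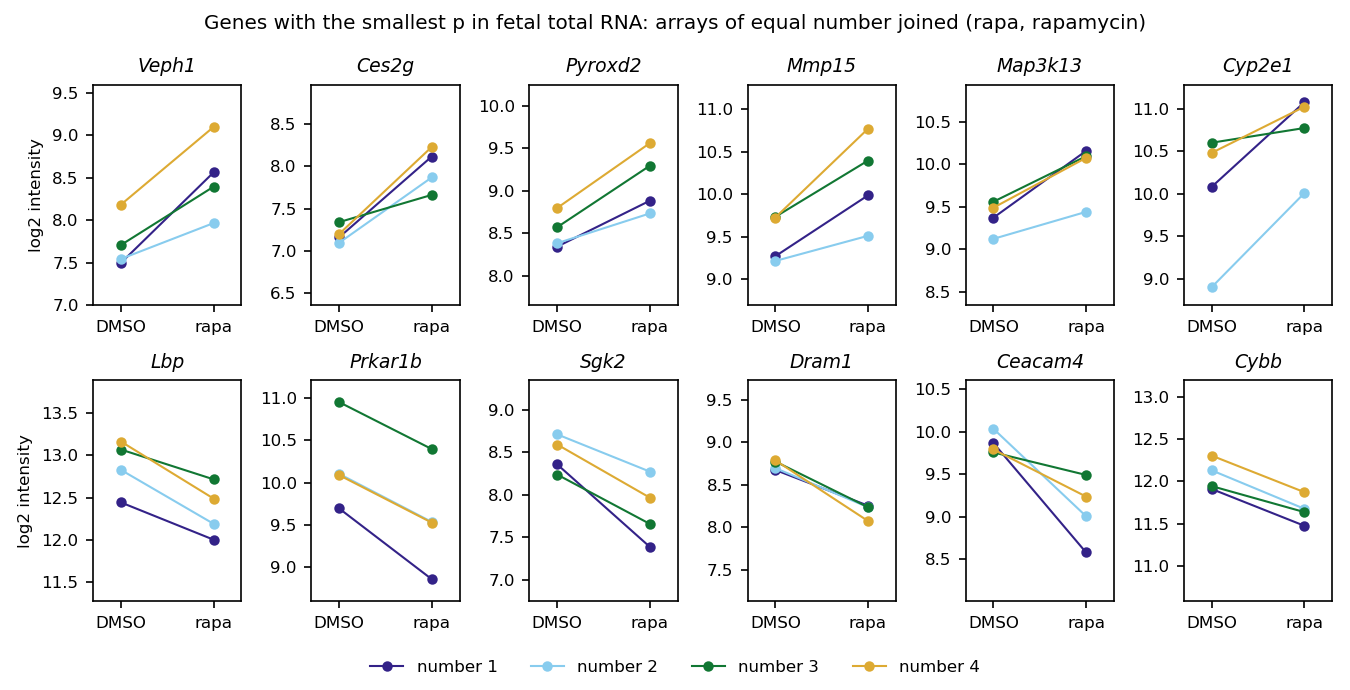
log2 intensity in DMSO and rapamycin (rapa) arrays, with lines joining arrays of equal number, for 6 genes higher (top) and 6 lower (bottom) with rapamycin that were among the smallest p. Every line of a panel slopes the same way, and none of the 12 genes passed the adjusted threshold.

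The 12 genes lower with rapamycin at the smallest p follow. Lbp, the hepatocyte-secreted acute phase protein that binds bacterial lipopolysaccharide, measured 12.44, 12.82, 13.06 and 13.16 in DMSO and 12.003, 12.19, 12.71 and 12.49 with rapamycin. It was lower in every pair, with pair differences from −0.67 to −0.35, and the fitted difference was −0.52 ± 0.08 (limma, adjusted p = 0.549). The acute phase list as a whole had a median of −0.03 over 35 tested, with 14 above 0. At an unadjusted p below 0.05, 3 were lower, and 1 was lower in all 4 pairs, beside 4.03% and 8.83% of all transcript clusters. Cybb, the catalytic subunit of the phagocyte NADPH oxidase, measured 11.91, 12.13, 11.95 and 12.30 against 11.48, 11.68, 11.64 and 11.88. Its groups did not overlap, and its pairs lay close together at −0.43, −0.45, −0.31 and −0.43. Ceacam4, a cell surface protein of the carcinoembryonic antigen family, measured 9.87, 10.03, 9.76 and 9.79 against 8.58, 9.004, 9.49 and 9.24. Again every rapamycin array lay below every DMSO array, with a difference of −0.78 ± 0.16. Dram1, a lysosomal membrane protein that takes part in autophagy, measured 8.68, 8.70, 8.78 and 8.79 in DMSO and 8.26, 8.24, 8.24 and 8.08 with rapamycin. Its groups did not overlap either, and the difference was −0.53 ± 0.10.

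Prkar1b is a regulatory subunit of protein kinase A, and Sgk2 is a kinase related to Sgk1, a target of mTOR complex 2. Prkar1b measured 9.69, 10.10, 10.95 and 10.09 in DMSO and 8.86, 9.54, 10.39 and 9.53 with rapamycin. Its pairs ran from −0.83 to −0.55, while the numbers differed so much in level that the groups overlapped. Sgk2 differed by −0.65 ± 0.11, with all 4 pairs lower. Pigr, which carries antibodies across bile duct and hepatocyte membranes, differed by −0.75 ± 0.16, and Lynx1, a modulator of nicotinic receptors, by −0.57 ± 0.11. Cxcl10, the interferon-induced chemokine, differed by −0.59 ± 0.13 and Ldhc, a lactate dehydrogenase subunit, by −0.54 ± 0.12. The list was completed by Pnpla3 and Trib3, which are described with their pathways.

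The mRNAs of the drug's own pathway showed no called difference. Of 25 genes of the mTOR complexes, FKBP12 and direct targets, 19 were tested, 0 were called and 0 reached an unadjusted p below 0.05 (limma), with a median of 0.03 beside −0.02 over all transcript clusters. Mtor itself measured 10.06, 10.09, 9.98 and 9.97 in DMSO and 10.58, 10.10, 9.99 and 10.14 with rapamycin, a difference of 0.18 ± 0.12 with a 95% interval of −0.09 to 0.44. Most of that lay in number 1. Rptor, the scaffold of complex 1, differed by −0.07 ± 0.10, and Fkbp1a, which encodes FKBP12, by −0.12 ± 0.13. Among the targets, Rps6kb1 (S6 kinase) differed by 0.03 ± 0.12, Rps6 by −0.04 ± 0.07, and the translation repressors Eif4ebp1 and Eif4ebp2 by −0.19 ± 0.12 and 0.03 ± 0.09. These intervals describe mRNA amounts, and the arrays do not measure the phosphorylation through which mTOR acts. Rictor, the scaffold of complex 2, was not among the transcript clusters tested. Of the 32 upstream regulators tested, 3 were lower at an unadjusted p below 0.05, beside 4.03% of all transcript clusters. They included Ddit4, a stress-induced inhibitor of the pathway, at −0.34 ± 0.15.

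Ribosomal protein mRNAs did not move as a group. The median over 68 cytosolic ribosomal proteins was −0.02, with 43 below 0, and 1 reached an unadjusted p below 0.05. The shares over all transcript clusters were 55.3% and 6.13%. By number the list median was −0.19, −0.05, 0.12 and 0.08, so numbers 1 and 2 lay opposite to numbers 3 and 4. The single gene was Rps25, which measured 8.02, 11.65, 7.95 and 9.12 in DMSO and 11.70, 11.92, 9.53 and 10.53 with rapamycin. It had the highest fitted difference of all transcript clusters, 1.73 ± 0.41, but the DMSO arrays themselves ran from 7.95 to 11.65 and another transcript cluster of the gene differed by 0.06 ± 0.12. Rpl38 measured 11.25 in rapamycin number 4 and 12.61 or more on every other array, with 1 of its 3 transcript clusters at −0.45 ± 0.20 and the others at −0.14 ± 0.11 and −0.25 ± 0.16. Other mRNAs with a terminal oligopyrimidine tract, the feature through which mTOR controls their translation, had a median of −0.01 over 23 tested. Of these, Eef1a1, the elongation factor that brings tRNAs to the ribosome, differed by 0.14 ± 0.06, and by 0.02 ± 0.06 on its other transcript cluster.

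Ribosome assembly and protein turnover genes lay slightly below. Of 61 ribosome biogenesis factors tested, 47 were below 0 and the median was −0.09, with 2 lower at an unadjusted p below 0.05, a share no larger than the 4.03% of all transcript clusters. Over all transcript clusters 55.3% lay below 0. Brix1, an assembly factor of the large subunit, differed by −0.34 ± 0.11. Proteasome subunits, which build the complex that degrades ubiquitin-marked proteins, had a median of −0.16, with 41 of 43 below 0, 14 lower in all 4 pairs and 7 lower at an unadjusted p below 0.05. The shares over all transcript clusters were 55.3%, 8.83% and 4.03%. None was called. Psmd3, a lid subunit, measured 10.77, 10.89, 10.95 and 10.80 in DMSO and 10.08, 10.67, 10.75 and 10.58 with rapamycin, without overlap. Psma6 and Psmd14 differed by −0.37 ± 0.12 and −0.47 ± 0.19. The list medians by number were −0.45, −0.10, −0.04 and −0.08, so number 1 carried much of the shift. Without number 1 the median over the list was −0.06, and over the ribosome biogenesis factors −0.02.

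**Figure D3:**
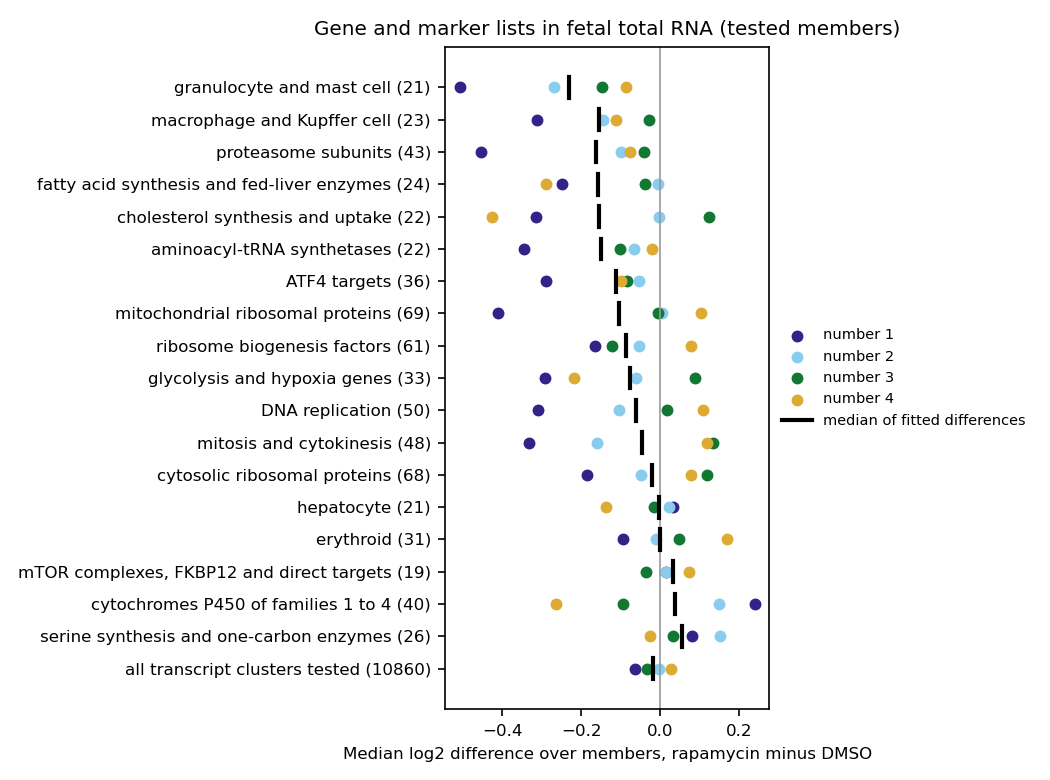
Median log2 difference, rapamycin minus DMSO, over the tested members (numbers in parentheses) of selected gene and marker lists; coloured points are the 4 replicate numbers and black bars the median of the fitted differences. Granulocyte and mast cell markers lie lowest at −0.23, number 1 lies lowest for the granulocyte, macrophage, proteasome and ATF4 lists, and all transcript clusters together lie at −0.02.

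Genes that answer to amino acid supply were mostly lower by small amounts. ATF4 is the transcription factor that raises amino acid synthesis, uptake and tRNA charging, and mTOR complex 1 promotes the translation of its mRNA. Of 36 of its targets tested, 30 were below 0, 8 were lower in all 4 pairs, 4 were lower at an unadjusted p below 0.05 and 0 were higher at that level, with a median of −0.11. Over all transcript clusters the shares were 55.3% below 0, 8.83% lower in all 4 pairs and 4.03% lower at that p. The list medians by number were −0.29, −0.05, −0.08 and −0.10, lowest in number 1. The promoters of Trib3, a pseudokinase, and Chac1, a glutathione-degrading enzyme, hold a match to the C/EBP-ATF response element. They are printed here with those of Aars1 and Pycr1, the alanyl-tRNA synthetase and a proline synthesis enzyme, as 4 of the 9 members found to hold it. The letters searched were TGATGNAA and its reverse complement TTNCATCA in the 250 bases before each RefSeq gene start of GRCr8, and the match is in capitals. Each stretch reads 5′ to 3′ on the gene's strand.
Trib3, minus strand, chr3:161275534-161275599: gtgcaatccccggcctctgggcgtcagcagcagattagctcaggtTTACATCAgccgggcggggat
Chac1, plus strand, chr3:126795919-126796016: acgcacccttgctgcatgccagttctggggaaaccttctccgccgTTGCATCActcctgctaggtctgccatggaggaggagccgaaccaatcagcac
Aars1, plus strand, chr19:55908325-55908422: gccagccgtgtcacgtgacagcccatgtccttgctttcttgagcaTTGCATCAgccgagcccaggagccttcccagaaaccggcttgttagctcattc
Pycr1, minus strand, chr10:106420891-106420988: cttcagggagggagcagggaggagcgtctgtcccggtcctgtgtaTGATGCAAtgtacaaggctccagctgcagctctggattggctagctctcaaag
The element was found for 9 of the 34 targets matched to the promoter table, and for 3.58% of all 27457 gene symbols in it. Its presence is a description of the letters and not a measured site of binding.

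Trib3 measured 8.21, 7.95, 9.19 and 8.95 in DMSO and 7.18, 7.62, 8.77 and 8.34 with rapamycin. It was lower in each pair, with a difference of −0.60 ± 0.13 (limma, adjusted p = 0.627). Chac1 measured 9.01, 8.66, 8.52 and 8.52 against 7.68, 8.12, 8.41 and 8.26, so its groups did not overlap. The pair of number 1 gave −1.33 and that of number 3 −0.11, for a difference of −0.56 ± 0.18. Psat1, an enzyme of the serine synthesis pathway, measured 13.22, 12.89, 12.74 and 12.80 in DMSO and 12.23, 12.79, 12.47 and 12.26 with rapamycin, a difference of −0.47 ± 0.13. A second transcript cluster of Psat1 differed by −0.04 ± 0.17. Aars1 and Pycr1, which hold the element but were named for it after their values were seen, differed by −0.10 ± 0.10 and −0.21 ± 0.13. Of the 9 targets with the element 6 were below 0, against 30 of 36 over the whole list, so a larger share of the whole list lay below. The median was −0.20 over the 9 and −0.08 over the other matched targets. The 3 above 0 were Fgf21 (0.06), a liver hormone, Herpud1 (0.03), a protein of endoplasmic reticulum quality control, and Slc7a1 (0.0073), a cationic amino acid transporter.

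The aminoacyl-tRNA synthetases, which charge tRNAs with amino acids and overlap the ATF4 list, had a median of −0.15, and of −0.09 without number 1. Of the 22 tested, 21 were below 0, beside 55.3% of all transcript clusters. Cars1, for cysteine, measured 9.69, 9.69, 9.74 and 9.73 in DMSO and 9.09, 9.37, 9.38 and 9.50 with rapamycin. Its groups did not overlap, and the difference was −0.38 ± 0.11 (limma, adjusted p = 0.762). The serine synthesis and one-carbon enzymes had a median of 0.06, with 18 of 26 above 0 and 8 below, Psat1 among these. Bhmt2, a methyltransferase that makes methionine, differed by 0.33 ± 0.09 and Dmgdh, a mitochondrial dimethylglycine dehydrogenase, by 0.49 ± 0.16, each higher in 4 of 4 pairs. Of the 26 enzymes, 5 were higher and 2 lower at an unadjusted p below 0.05, beside 2.10% and 4.03% of all transcript clusters, and 0 were called.

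Lipid synthesis genes were lower in some pairs and not in others. mTOR complex 1 promotes the SREBP factors, which raise the enzymes of fatty acid and cholesterol synthesis. The 24 fatty acid synthesis and fed-liver enzymes tested had a median of −0.16, with 6 lower and 1 higher at an unadjusted p below 0.05. At that p, 4.03% of all transcript clusters were lower and 2.10% higher. Without number 4 the list median was −0.09. Scd, the stearoyl-CoA desaturase, measured 10.51, 10.82, 11.72 and 12.10 in DMSO and 8.92, 10.28, 11.74 and 10.16 with rapamycin. The pairs gave −1.59, −0.55, 0.02 and −1.93, so number 3 showed no difference, and the fitted value was −1.01 ± 0.27 (limma, adjusted p = 0.752). The other desaturases Fads1 and Fads2, named here for their place beside Scd after their values were seen, differed by −0.41 ± 0.13 and −0.55 ± 0.16. Their pairs in numbers 1 and 4 also lay lowest. Pnpla3, a lipid droplet protein, measured 7.41, 8.004, 7.75 and 8.31 in DMSO and 6.98, 7.44, 7.40 and 7.41 with rapamycin. It was lower in each pair, and its difference was −0.56 ± 0.12. Me1, the malic enzyme that supplies NADPH, differed by −0.39 ± 0.14. Acacb, the acetyl-CoA carboxylase that restrains fatty acid oxidation, ran the other way at 0.47 ± 0.12, higher in 4 of 4 pairs.

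Of the 22 cholesterol synthesis and uptake genes tested, 20 were below 0 and 3 were lower at an unadjusted p below 0.05. The shares over all transcript clusters were 55.3% and 4.03%. The list median was −0.15. By number the medians were −0.32, −0.00, 0.12 and −0.43, so numbers 2 and 3 did not show it, and without number 4 the list median was −0.07. Fdps, which makes farnesyl diphosphate, measured 12.99, 12.87, 13.17 and 13.31 in DMSO and 12.54, 12.63, 13.16 and 12.94 with rapamycin, a difference of −0.27 ± 0.09. Sc5d, a late sterol desaturase, differed by −0.21 ± 0.09, and Scap, the sterol sensor that escorts SREBP, by −0.28 ± 0.11. None was called.

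Hepatocyte function genes stood on both sides of 0. Of 40 cytochromes P450 tested, 7 were higher and 2 lower at an unadjusted p below 0.05, beside 2.10% and 4.03% of all transcript clusters. The list median was 0.04. By number the medians were 0.24, 0.15, −0.10 and −0.26, so numbers 1 and 2 lay opposite to numbers 3 and 4. Cyp2c22 differed by 0.64 ± 0.18 and was higher in 4 of 4 pairs. Cyp7a1, the rate-limiting enzyme of bile acid synthesis, measured 10.97, 11.59, 12.91 and 12.72 in DMSO and 12.52, 12.15, 13.10 and 12.59 with rapamycin. It was higher in numbers 1 to 3, most in number 1, and its difference was 0.54 ± 0.22. Tat and Pck1, hormone-induced genes of amino acid breakdown and gluconeogenesis, were low in numbers 1 and 2 of both groups, at 5.87 to 6.39 for Tat and 6.68 to 6.99 for Pck1. In numbers 3 and 4, Tat was 9.29 and 9.34 in DMSO and 7.90 and 7.09 with rapamycin, and Pck1 was 10.38 and 9.47 against 9.31 and 7.89. Their fitted differences were −0.96 ± 0.32 and −0.63 ± 0.25. Asl, a urea cycle enzyme, differed by −0.44 ± 0.13. Apoa2, a lipoprotein component, differed by −0.34 ± 0.12, yet the median over 21 hepatocyte markers was −0.00 and Alb differed by −0.02 ± 0.06.

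Differences of fetal growth genes lay on both sides of 0. The growth hormone and IGF list had a median of −0.00, with 13 of 24 tested below 0. At an unadjusted p below 0.05, 1 was higher and 0 lower. The fetal hepatocyte list also had a median of −0.00, with 14 of 26 below 0, and 3 higher and 2 lower at that p. Over all transcript clusters 55.3% lay below 0, and 2.10% were higher and 4.03% lower at that p. Igf2, the main fetal growth factor of the liver, measured 13.91, 14.02, 13.55 and 13.51 in DMSO and 14.01, 13.99, 13.59 and 13.39 with rapamycin. The difference was −0.00 ± 0.06 with a 95% interval of −0.14 to 0.14. Afp differed by 0.06 ± 0.06. Igfbp1, which binds insulin-like growth factors, was at 12.29 in DMSO number 1 and 13.66 in number 4, and its pairs gave 0.41, 0.32, −0.25 and −0.65, for a difference of −0.04 ± 0.16. Igfbp5, another of the binding proteins, differed by 0.66 ± 0.19 and was higher in each pair. Meg3, an imprinted noncoding RNA, differed by 0.30 ± 0.12. Hamp, the iron-regulating hormone hepcidin, measured 11.53 in DMSO number 1 against 12.65 or more on every other array and differed by 0.45 ± 0.26.

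Glycolysis and hypoxia genes had a median of −0.08 over 33 tested, with 6 lower and 0 higher at an unadjusted p below 0.05. At that p, 4.03% of all transcript clusters were lower and 2.10% higher. By number the medians were −0.29, −0.06, 0.09 and −0.22, so number 3 lay above 0 and numbers 1 and 4 lay lowest. Without number 3 the list median was −0.20. Pfkfb3, which makes the activator of phosphofructokinase, measured 8.29, 8.34, 8.56 and 8.38 in DMSO and 8.03, 8.11, 8.04 and 8.11 with rapamycin. Its groups did not overlap, and the difference was −0.32 ± 0.10 (limma, adjusted p = 0.805). Pkm, the pyruvate kinase of growing tissue, differed by −0.43 ± 0.16, with a second transcript cluster at −0.00 ± 0.14. Egln3, an oxygen-sensing hydroxylase, differed by −0.48 ± 0.18.

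Granulocyte and mast cell markers had the lowest median of the 37 gene lists and 13 marker lists. Of 35 listed genes 21 were tested, with a median of −0.23, 17 below 0, 10 lower and 1 higher at an unadjusted p below 0.05, and 0 called. The medians by number were −0.51, −0.27, −0.15 and −0.09, lowest in number 1, and without number 1 the list median was −0.19. Over all transcript clusters 4.03% were lower at that level, and 55.3% lay below 0. Their part in the differences of other genes was not tested. The mast cell markers Mcpt1, Cpa3, Fcer1a and Ms4a2 and the neutrophil granule gene Ltf were below the filter on dim transcript clusters. The summed linear intensity of the 21 tested markers was 66950 to 70099 in the DMSO arrays and 56381 to 60455 in the rapamycin arrays, without overlap. S100a8, a calcium-binding protein of neutrophils, measured 8.09, 8.36, 7.98 and 8.44 in DMSO and 7.39, 7.72, 7.83 and 7.65 with rapamycin. Its groups did not overlap, and the difference was −0.57 ± 0.12 (limma, adjusted p = 0.627). S100a9, its partner protein, measured 11.81, 11.95, 11.27 and 11.19 against 11.40, 11.34, 11.07 and 10.72, lower in each pair, with a difference of −0.42 ± 0.10. Elane, neutrophil elastase, differed by −0.38 ± 0.10, again lower in each pair.

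Not every granulocyte marker lay lower. Mpo, the myeloperoxidase of primary granules, differed by −0.07 ± 0.09, and Kit, the receptor of mast cells and progenitors, by 0.22 ± 0.10 with its rapamycin arrays above its DMSO arrays. Ngp, a neutrophil granule protein, measured 11.63, 10.72, 12.60 and 12.09 in DMSO and 9.84, 11.96, 9.88 and 10.66 with rapamycin. Number 2 ran opposite to the others, and the difference was −1.18 ± 0.49. Without number 2 it was −1.98 (limma, adjusted p = 0.0265), the only call that leaving out a number gave. Mpo, Kit and Ngp were named after their values were seen. Plac8, a gene of myeloid cells, measured 10.87, 11.08, 10.52 and 10.60 in DMSO and 9.78, 10.35, 10.22 and 10.22 with rapamycin, without overlap.

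**Figure D4:**
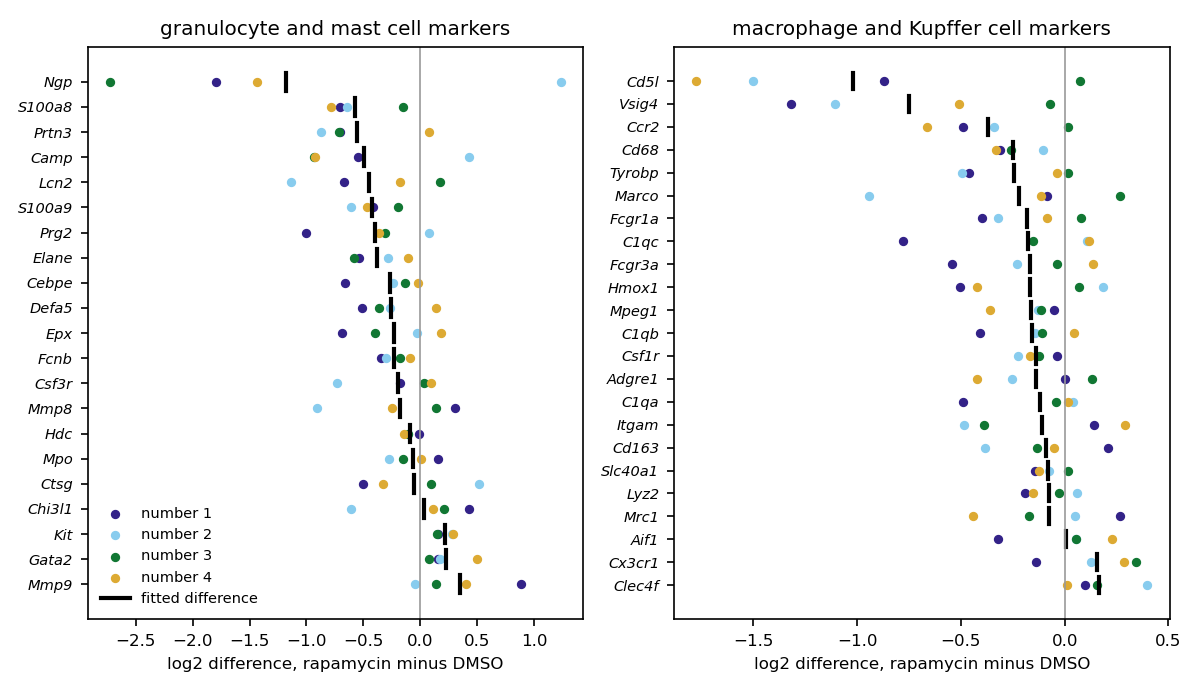
log2 difference, rapamycin minus DMSO, in each replicate number (points) and as fitted (black bars) for the tested granulocyte and mast cell markers (left) and macrophage and Kupffer cell markers (right). Most bars lie left of 0, from −1.18 for Ngp on the left and −1.02 for Cd5l on the right.

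Macrophage and Kupffer cell markers had a median of −0.16 over 23 of 26 listed, with 20 below 0 and 4 lower at an unadjusted p below 0.05. The shares over all transcript clusters were 55.3% and 4.03%. The list medians by number were −0.31, −0.14, −0.03 and −0.11, again lowest in number 1, and without number 1 the list median was −0.17. Vsig4, a complement receptor of Kupffer cells, measured 8.66, 8.997, 8.56 and 8.76 in DMSO and 7.34, 7.89, 8.49 and 8.25 with rapamycin. Its groups did not overlap, and its difference was −0.75 ± 0.19. Cd5l, a secreted macrophage protein, measured 8.55, 9.65, 7.22 and 8.99 against 7.68, 8.15, 7.30 and 7.21. Number 3 showed no difference, and the fitted value was −1.02 ± 0.25 (limma, adjusted p = 0.739). Ccr2, a chemokine receptor of monocytes, differed by −0.37 ± 0.13 and Cd68, a lysosomal protein of macrophages, by −0.25 ± 0.10. The summed intensity of the list was 34554 to 38289 in DMSO and 29208 to 35102 with rapamycin, so the groups overlapped. Erythroid markers, by contrast, had a median of −0.00 over 31 tested, with summed intensities of 131660 to 204100 and 134760 to 202510. Endothelial and stellate cell markers had medians of 0.01 and 0.00.

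In fetal polysome RNA, the fraction bound to several ribosomes, the granulocyte list had a median of −0.04 and the macrophage list of −0.10. S100a8 and S100a9 differed there by 0.07 and 0.01, and Vsig4 by −0.78. The proteasome list lay at −0.07, the ATF4 targets at −0.12 and the cholesterol genes at −0.17. The rapamycin effect differed between the fractions for 0 transcript clusters (limma, adjusted p below 0.05; 0%), with 413 (3.80%) at an unadjusted p below 0.05. In polysome RNA taken alone, 0 were called (0%) and 1533 (14.1%) had an unadjusted p below 0.05. The fractions carry the same replicate numbers and are not taken as independent evidence of each other. Lbp, which had a difference of −0.52 in total RNA, stood at 0.01 in polysome RNA, and Ubxn2a at 0.66 and 0.01.

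Cell division genes differed little in fetal liver, where hepatocytes and blood precursors divide. Of 48 mitosis and cytokinesis genes tested, 29 were below 0 and 1 reached an unadjusted p below 0.05, with a median of −0.05 and medians by number of −0.33, −0.16, 0.13 and 0.12. That gene was Cdc25c, the phosphatase that activates mitotic kinase, at −0.25 ± 0.10. Of all transcript clusters, 55.3% lay below 0 and 6.13% reached that p. Birc5, a protein of the dividing chromosome complex, measured 8.97, 9.14, 8.75 and 8.85 in DMSO and 8.66, 9.06, 8.99 and 9.03 with rapamycin, a difference of 0.01 ± 0.12. Ccnd1, the cyclin of the G1 phase, differed by 0.01 ± 0.11 with an interval of −0.24 to 0.25. Among 50 DNA replication genes the median was −0.06, with 40 below 0, beside 55.3% of all transcript clusters. Their medians by number were −0.31, −0.10, 0.02 and 0.11.

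After hepatectomy, where adult hepatocytes re-enter the cell cycle, the same mitosis list had a median of −1.60 with rapamycin. The test of the difference between the settings, adult minus fetal, had 47 of 48 members at an unadjusted p below 0.05, against 1483 (13.7%) of all transcript clusters, and 0 at an adjusted p below 0.05, with a smallest adjusted p of 0.075 (limma). Leaving out rapamycin number 2 of the hepatectomy arrays brought 43 members past the threshold, all lower after hepatectomy. Leaving out any other hepatectomy array or fetal number left 0. With the replicate block in both models 41 members were called, all lower after hepatectomy. Age, dose per body weight, surgery and time all differ between the settings and cannot be told apart.

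**Figure D5:**
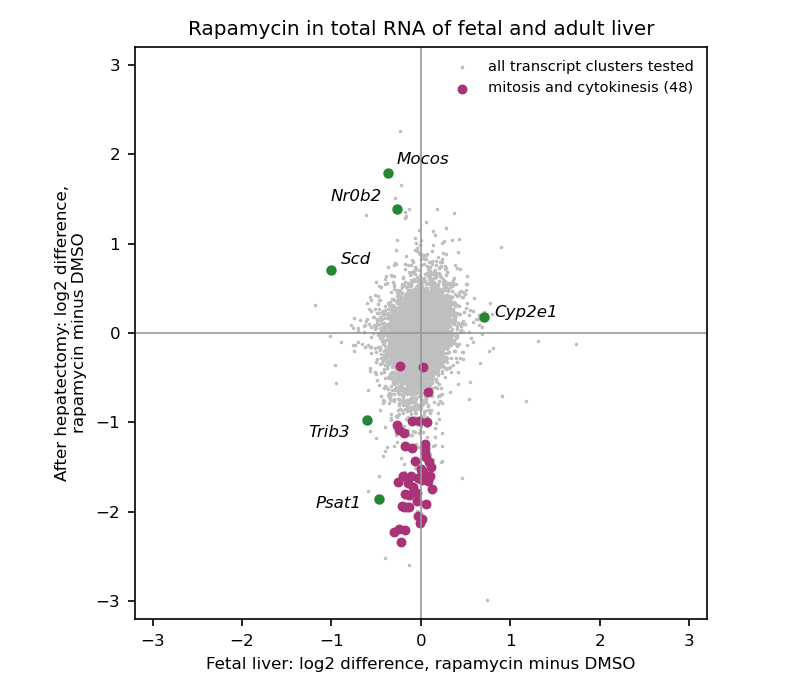
log2 difference, rapamycin minus DMSO, in fetal total RNA (horizontal) against total RNA after hepatectomy (vertical), for all 10860 transcript clusters (grey), 48 mitosis and cytokinesis genes (purple) and 6 genes of the text (green). The mitosis genes have a median of −0.05 in fetal liver and −1.60 after hepatectomy, and Mocos lies above 0 in the adult and below 0 in the fetus.

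A single gene, of 10860 (0.00921%), had a rapamycin effect that differed from that after hepatectomy. Mocos, a sulfurase that activates molybdenum-dependent oxidases, measured 7.23, 7.40, 7.91 and 8.35 in fetal DMSO and 6.73, 6.94, 7.68 and 8.10 with rapamycin, lower in each pair with a difference of −0.36 ± 0.10. After hepatectomy it rose by 1.80 ± 0.11 (limma, adjusted p = 0.00262), and the difference between the settings was 2.16 (adjusted p = 4.67e-05). That call was lost on group means without pairing (limma, adjusted p = 0.259) and on all 40 arrays (0.406). The count of genes with a called difference became 150 with the replicate block in both models. It ran from 1 to 206 with an array or number left out. In the adult model 14 transcript clusters were called (0.129%), 6 higher and 8 lower. These were chosen by their adult values, so the sizes in the fetus are given without a comparison. Of the 6, 3 were above 0 in the fetus, and of the 8, 6 were below 0. On the same side in both settings stood Psat1, which fell by 1.86 and had −0.47 in the fetus, although its second transcript cluster had −0.30 (adjusted p = 0.233) and −0.04. Nnmt, which methylates nicotinamide, fell by 1.10 and had −0.57 ± 0.17. Tmem97, a sterol-responsive membrane protein, fell by 0.86 and had −0.45 ± 0.17. Ppa1, an inorganic pyrophosphatase, fell by 0.69 and had −0.37 ± 0.12. Ror1, a receptor for Wnt ligands, rose by 1.05 and had 0.43 ± 0.12. Nr0b2, which encodes the bile acid-responsive repressor SHP, rose by 1.38 and had −0.27 ± 0.23 in the fetus, with pairs of 0.10, −0.00, 0.19 and −1.35. After hepatectomy Nt5dc2 fell by 1.46 and Cep128 fell by 1.25, and in the fetus they had 0.06 and 0.08. Popdc2, Mgp, a matrix protein, and Pklr, the liver pyruvate kinase, rose by 1.24, 0.93 and 0.98 and had 0.06, −0.06 and 0.13. The count of 14 in the adult model ran from 1 to 800 as single arrays were left out. In refed liver 0 transcript clusters were called (0%; 805 or 7.41% at an unadjusted p below 0.05), and the difference from fetal liver was called for 0 (0%; 1104 or 10.2% at an unadjusted p below 0.05).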

How the data were processed

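RNA of 40 rat liver samples was hybridised to Affymetrix Rat Gene 1.0 ST arrays. Per the submitters' processing notes, the authors summarised probes with RMA, and the deposited values are linear intensity per transcript cluster; the sources used here do not give the RMA version or settings. Values were converted to log2. Of 28826 transcript clusters, 15209 carried 1 gene symbol, 306 several and 13311 none in the platform annotation, and 15178 of the symbols matched RefSeq (GRCr8). Those with at least 1 symbol and a mean over the 40 arrays at or above their 30th percentile (6.7 in log2) were tested. This left 10860, and those among them with 1 symbol covered 10203 genes. Of the 10860, 239 had a mean below that level over the 8 fetal total RNA arrays and passed through the other arrays.

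Fetal total RNA was fitted with limma 3.58.1 (R 4.3.3), with replicate number as a block, a variance trend and Benjamini-Hochberg adjustment at 0.05, leaving 3 residual degrees of freedom. The block follows the labels' replicate numbers. DMSO and rapamycin arrays of equal number correlated in all 4 pairs (0.42 to 0.71 in deviations from the group means). Arrays of unequal number ran from −0.68 to 0.61, and DMSO number 4 correlated more with rapamycin number 3 (0.61) than with rapamycin number 4 (0.42). The correlations thus do not show that equal numbers are true pairs. Adult effects were fitted on group means, and effects were compared through the difference of fitted values. The number of arrays limits the precision. Procedures were tested on simulated data. Alternatives covered the block, the arrays fitted, filters, scaling, the variance trend and leaving out numbers.

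The members and gene lists were chosen with earlier results of these data known. Named genes were the 12 smallest p in each direction, up to 3 of each list by p, those leading the differences from the other settings, and a fixed set; Aars1, Pycr1, Cd68, Fads1, Fads2, Kit, Mpo, Ngp, Cyp3a2, Hbe1, Nnmt, Tmem97, Ppa1, Ror1, Fgf21, Herpud1 and Slc7a1 were named after their values were seen. Some genes are not reported here. Motifs were searched in RefSeq promoter windows of 250 bases before each gene start.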

Additional observations from a re-analysis of the deposited data

Results flagged for a closer look

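Among 298 groups of 4 arrays checked, 99 genes and 50 list means in either treatment, 10 held an array far from the other 3, judged by its gap to the nearest array as a share of the group's range. Chance gives about 1 in 20 such groups, a larger share than the 10 of 298 found here. The groups share arrays, and the lists share genes, so they are not independent. Of the 10, 5 were rapamycin number 1. Rapamycin number 1 was lowest for Pnpla3 (gap share 0.907), Birc5 (0.831), the proteasome subunits (0.867), the ATF4 targets (0.847) and the cytosolic heat shock proteins (0.925). For the proteasome list its mean was 10.04 in log2 units, against 10.51 for the nearest rapamycin array. Rapamycin number 4 was lowest for Dram1 (0.9) and Rpl38 (0.879), where it measured 11.25 against 12.61 for the nearest. Rapamycin number 2 was lowest for Map3k13 (0.886). DMSO number 1 was lowest for Me1 (0.909), and DMSO number 4 was highest for the intestine markers (0.896), of which 6 were tested.

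The rapamycin effect on Mocos differed between hepatectomy and fetal liver by 2.16 on the log2 scale (limma, adjusted p = 4.67e-05), higher after hepatectomy and lower in 4 of 4 fetal pairs. The call was lost without the replicate block (limma, adjusted p = 0.259) and on group means of all 40 arrays (0.406).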

How the results depend on the processing

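The fetal count was 0 under every alternative run (no replicate block, 16 arrays with and without a replicate block, filters, scalings, variance trend) except without number 2, where it was 1, Ngp (−1.98). Leaving out a number gave 0 to 1. Without the replicate block 131 transcript clusters had an unadjusted p below 0.05. The difference from hepatectomy was called for 0 without the block, for 150 with the replicate block in both models, and for 1 to 206 with an array or number left out. The difference from refed liver was called for 3 with the replicate block in both models and 0 to 355 with one left out. Mitosis members called numbered 41 with the block in both models. Chosen after seeing the data were group means of all 40 arrays (1 for refed, 1 mitosis member), the hepatectomy effect with the replicate block (348), with polysome arrays (544) or with an array left out (1 to 800), and polysome RNA with a number left out (0 to 2). The causes were not tested.

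Of 1187 gene values, 1157 kept their direction and side of the threshold and 29 changed sign, all uncalled. Settings that alter only the block, the arrays fitted, the filter or the variance trend leave the fitted difference unchanged. Their signs could not change, and the count includes them. Under cyclic loess the sign changed for Hbe1 (0.028), Igf2 (0.037), Alb (0.017) and Rps6 (0.0061), and under median centring for Igf2 (0.012). With 1 number left out the values ran from −0.11 to 0.097 for Hbe1, −0.035 to 0.040 for Igf2, −0.026 to 0.087 for Ccnd1, −0.14 to 0.0052 for Mpo, −0.071 to 0.087 for Rps6kb1, −0.19 to 0.16 for Igfbp1, −0.047 to 0.034 for Alb and −0.23 to 0.027 for Fkbp1a. The ranges were −0.042 to 0.14 for Nt5dc2, −0.12 to 0.041 for Mgp, −0.42 to 0.096 for Nr0b2, −0.060 to 0.17 for Cep128, −0.068 to 0.11 for Birc5, −0.022 to 0.17 for Fgf21, −0.092 to 0.097 for Slc7a1 and −0.033 to 0.11 for Herpud1. Of 350 list medians, 345 moved by less than the spread between numbers and 5 did not. The 350 include medians with 1 number left out. Such a median still rests on the remaining numbers, so its move was largely limited in advance by that same spread. The count of 345 therefore says little about how stable the list medians are.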

Other observations

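Other lists are given here by their values. Oxidative phosphorylation subunits had a median of −0.07 over 68 tested with 58 below 0, beside 55.3% over all transcript clusters, and the medians by number were −0.38, 0.02, 0.05 and −0.01. Mitochondrial ribosomal proteins had a median of −0.10 with 54 of 69 below 0, at −0.41 in number 1 and between −0.00 and 0.10 in the others. Fatty acid oxidation and ketogenesis genes lay on the other side, with a median of 0.06. Of the 34 tested, 24 were above 0 and 10 below, beside 55.3% below 0 over all transcript clusters. Their medians by number were 0.24, 0.14, −0.02 and −0.06, so only numbers 1 and 2 lay above 0. Exocrine pancreas markers, 14 tested, had a median of 0.08 but list medians of −0.67 in number 3 and 0.63 in number 4. Their summed intensity ran from 1953 to 6892 in the DMSO arrays and from 2068 to 7602 in the rapamycin arrays. Pancreatic tissue in single samples was not tested.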
